A study of Mus musculus with 8 samples.

Results

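The phosphoinositide 3-kinase genes described here number 10, and all 10 were read on the array, by 15 of its 39556 probes. They are the class I catalytic subunits Pik3ca, Pik3cb, Pik3cd and Pik3cg with the regulatory subunit Pik3r1, the class II enzymes Pik3c2a, Pik3c2b and Pik3c2g, and the class III enzyme Pik3c3 with its partner Pik3r4. Pik3r1 and Pik3r4 are partner subunits and not isoforms of the kinase. The set was chosen by gene name around Pik3c2g, which itself was selected on its measured difference between knockout and wild-type livers. That difference is therefore given as a description with no test, while the other 9 genes entered by family name. The array reads 19896 named genes in all. Of the 10 kinase genes, 4 were read by more than 1 probe and 6 by a single probe. Pik3c2b was listed under its older name C330011J12Rik.

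Liver total RNA came from 3 mice labelled as knockouts of Me1, also called Mod1, the gene of cytosolic malic enzyme, and from 5 littermates labelled as wild type. Cytosolic malic enzyme turns malate into pyruvate and makes NADPH in doing so. Each liver was hybridised on a 2-colour array against pooled liver RNA of 5 wild types. A value is thus the log2 ratio of 1 mouse to the pool, and 0 equals the pool. The wild-type mice are numbered 14, 15, 21, 22 and 26, and the knockout mice 27, 31 and 33, and values of single mice are given in this order throughout. Strain, sex, age and the making of the allele are not stated in the labels.

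Phosphoinositide 3-kinases add a phosphate to the inositol ring of membrane lipids, and the lipids then recruit proteins such as the kinase AKT. Class I enzymes work below insulin and growth factor receptors, class II enzymes act on endosomes and at sites of vesicle formation, and the class III enzyme serves endosome traffic and autophagy. In mouse liver the class II enzyme encoded by Pik3c2g is known for making a lipid on endosomes that prolongs the activation of AKT2 after insulin.

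The sign of the ratios was not stated with the values. Over the 300 probes that varied most among the wild types, the mean ratio of those mice had a median of 0.999 when read as log10 of mouse over pool and of 1.33 with the sign turned. Such a check takes the pool to be made of these same wild types, which the sample titles do not state. Read as log2 of mouse over pool the median was 0.968, so this check does not settle the base. The values were taken as log10, their lowest being -2, and a log2 base would make every difference here 3.32 times smaller. Of 28 pairs of arrays, 3 correlated below -0.3 over all probes, with a lowest r of -0.459 between wild-type mice 22 and 26. These correlations do not settle the sign. The wild-type check does not reach the knockout arrays, so their direction is not settled. Differences of the kinase genes, medians of the gene lists (for most lists as a range) and some other values are therefore also given with that sign turned. Where a difference is given in 1 direction only, that direction rests on the same inference and is not settled. The Me1 probe read 0.82, -0.81 and -0.68 in knockout mice 27, 31 and 33. The wild types, in the order 14, 15, 21, 22 and 26, read 0.82, -0.64, -0.70, -1.73 and 0.70, so the targeted gene's signal overlapped between the genotypes. Where that probe lies in the gene is not given, so it does not check the labels. The standard deviation of the log2 ratios over all probes ran from 0.127 to 0.291 among the arrays, widest in wild-type mouse 22 and, among the knockouts, widest in mouse 33 (0.273).

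Pik3c2g, the liver class II kinase, was read by 1 probe, so no other probe checks its values. It had ratios of -1.76, -1.91 and -2.22 in knockout mice 27, 31 and 33. Its ratios were 0.28, 0.08, 0.15, -0.25 and -0.50 in wild-type mice 14, 15, 21, 22 and 26. All knockouts lay far below all wild types, with an empty stretch between wild-type mouse 26 and knockout mouse 27 that was wider than the range of either group. The knockouts averaged -1.96 ± 0.23 (SD, n = 3). The wild types averaged -0.05 ± 0.32 (SD, n = 5). On the linear scale these means are 25.7% and 96.7% of the pool. The difference, knockout minus wild type, was -1.91, or 3.77-fold lower in the knockout. In the limma fit its standard error was 0.19 and its 95% interval ran from -2.34 to -1.49. Neither allows for the choice of the gene by this same difference, so neither is a test of it. Among all named genes, 9 had a lower difference, and by size in either direction Pik3c2g ranked 18. With the knockout arrays turned in sign the difference would be 2.01, with 19 named genes above it, so its direction rests on the direction inferred for those arrays. In bulk liver, fewer cells that carry a transcript and less of it per cell cannot be told apart.

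**Figure D1:**
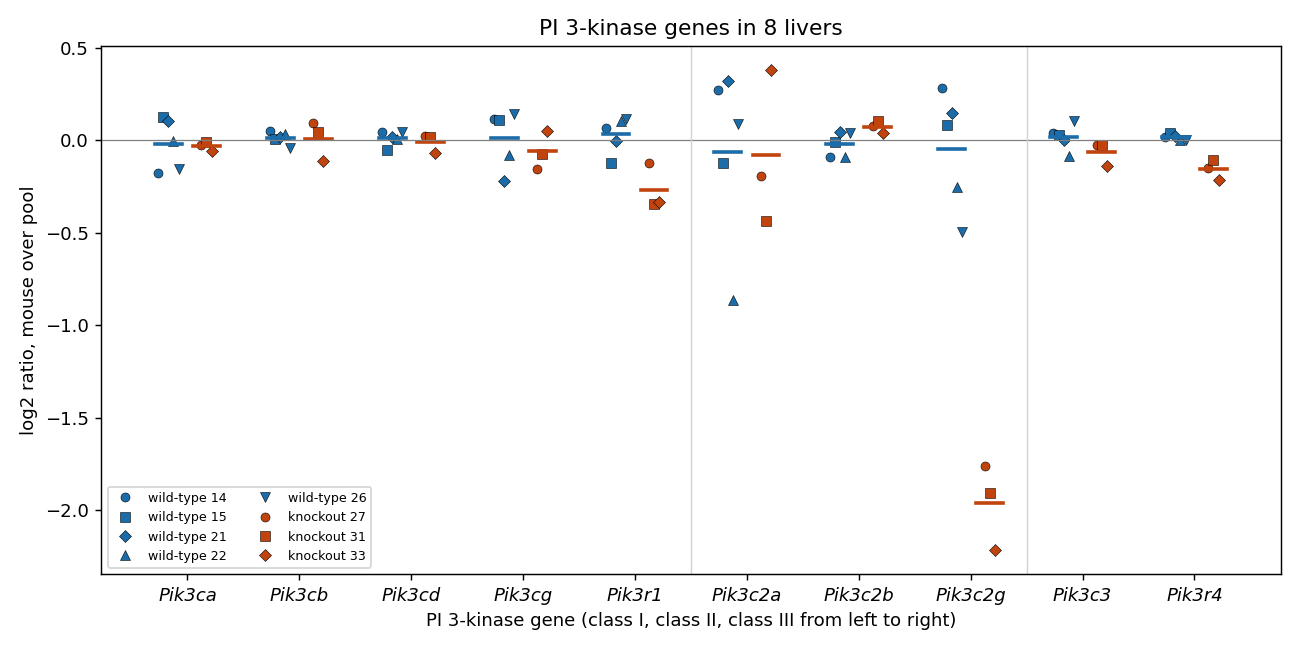
Log2 ratio of each mouse to the pool (vertical axis) for the 10 phosphoinositide 3-kinase genes (horizontal axis, ordered by class), with wild-type mice in blue, knockout mice in red, 1 point per mouse and short lines at the group means. The 3 knockout points of Pik3c2g sit between -2.22 and -1.76, while the widest spread among wild types belongs to Pik3c2a.

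RefSeq places 2 starts of Pik3c2g on chromosome 6, and their promoter windows are shown because this gene carries the largest difference of the set. Each window runs from 250 bases before to 50 bases after the start, in build GRCm38.p6, printed 5′ to 3′ on the plus strand at chr6:139613822-139614121 and chr6:139841195-139841494. Capitals mark matches to any of 7 motifs searched on both strands: the TATA box TATAAA, the CCAAT box, the GC box GGGCGG, the forkhead motif TGTTTAC, the HNF4 motif CAAAGTCCA, the STAT motif TTCNNNGAA, with N any base, and the E-box CACGTG.
Pik3c2g first start: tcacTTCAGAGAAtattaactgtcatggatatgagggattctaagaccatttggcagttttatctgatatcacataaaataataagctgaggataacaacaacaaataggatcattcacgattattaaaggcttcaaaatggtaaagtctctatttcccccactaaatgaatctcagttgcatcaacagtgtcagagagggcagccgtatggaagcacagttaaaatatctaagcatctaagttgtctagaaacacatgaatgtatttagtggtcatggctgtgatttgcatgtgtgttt
Pik3c2g second start: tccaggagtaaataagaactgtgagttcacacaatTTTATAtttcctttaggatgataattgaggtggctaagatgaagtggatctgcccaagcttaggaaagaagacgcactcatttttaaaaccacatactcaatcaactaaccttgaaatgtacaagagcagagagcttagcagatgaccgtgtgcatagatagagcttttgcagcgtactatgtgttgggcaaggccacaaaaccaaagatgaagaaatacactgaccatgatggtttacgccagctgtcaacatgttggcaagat
The first window holds 1 match, to the STAT motif, which 8.3% of 32851 promoter windows of the same length hold. The second holds 1 match, to the TATA motif on the opposite strand, which 13.6% of windows hold. The windows had a G and C content of 36.0% and 40.7%, against a median of 52.7% over all windows. They held 2 and 4 CpG pairs, against a median of 7. Which transcript the probe reads is not given, and a match is a run of letters, not a bound site.

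The other class II genes did not share that pattern. Pik3c2a, a clathrin-binding enzyme of endocytosis, had ratios of 0.27, -0.12, 0.32, -0.86 and 0.09 in the wild types. Its ratios in knockout mice 27, 31 and 33 were -0.19, -0.43 and 0.38. The genotypes overlapped, and the lowest value of all belonged to wild-type mouse 22. The difference was -0.02 ± 0.29 (SE, n = 3 and 5), with a 95% interval from -0.69 to 0.65, and differences inside that interval could not be told from 0 among these mice. The adjusted p was 0.984 in limma, and the turned difference 0.14. Pik3c2a had the widest wild-type spread of the 10 genes, an SD of 0.481 against a median of 0.109 over all named genes, and Pik3c2g came next with 0.319. Pik3c2b, the class II enzyme found in many tissues, had ratios of -0.09, -0.01, 0.04, -0.09 and 0.04 in the wild types and 0.07, 0.10 and 0.04 in the knockouts. It was the 1 gene of the set with a positive difference (0.10 ± 0.05, 95% interval from -0.02 to 0.21, adjusted p = 0.589 in limma). Knockout mouse 33 overlapped with wild-type mouse 21.

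Among the class I catalytic subunits no separation by genotype was seen. Pik3ca, the widely expressed alpha subunit that carries much of the insulin signal in liver, had ratios of -0.18, 0.12, 0.10, -0.01 and -0.16 in the wild types. The knockouts read -0.03, -0.01 and -0.06, inside the wild-type range. Pik3cb, the beta subunit, read 0.05, 0.01, 0.02, 0.03 and -0.04 in the wild types and 0.09, 0.04 and -0.11 in the knockouts. Here the knockouts spread wider than the wild types and on both sides of them. The difference of Pik3ca was -0.0082 ± 0.080 (SE), with a 95% interval from -0.19 to 0.18 and an adjusted p of 0.978 in limma. That of Pik3cb was -0.0044 ± 0.055, from -0.13 to 0.12, with an adjusted p of 0.982. With the knockout arrays turned in sign they would be 0.054 and -0.020.

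The delta and gamma catalytic subunits are known mainly from white blood cells. Pik3cd read 0.05, -0.05, 0.02, 0.01 and 0.04 in the wild types and 0.02, 0.02 and -0.07 in the knockouts. Pik3cg read 0.11, 0.11, -0.22, -0.08 and 0.14 in the wild types and -0.16, -0.08 and 0.05 in the knockouts. The genotypes overlapped for both genes. The differences were -0.02 ± 0.04 (95% interval from -0.12 to 0.08, adjusted p = 0.872) and -0.07 ± 0.10 (from -0.29 to 0.15, adjusted p = 0.814), or -0.0019 and 0.048 turned. Of 11 white blood cell markers measured beside them, 6 had a positive and 5 a negative difference, and none passed adjusted p 0.05. The median ratio over those markers ran from -0.11 to 0.17 in the wild types and from -0.07 to 0.25 in the knockouts.

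Pik3r1 encodes the regulatory subunits that hold the class I catalytic subunits stable and dock them to receptors and adaptors. The mean of its 2 probes was 0.07, -0.13, -0.01, 0.10 and 0.12 in the wild types. It was -0.12, -0.35 and -0.33 in knockout mice 27, 31 and 33. Knockout mouse 27 overlapped with wild-type mouse 15, and the other 2 knockouts lay below every wild type. The difference was -0.30 ± 0.08 (95% interval from -0.47 to -0.12), with an unadjusted p of 0.00423 and an adjusted p of 0.353 in limma over all features. It would be 0.24 with the knockout arrays turned in sign.

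The 2 probes of Pik3r1 disagreed. Probe 10019061837 read 0.11, -0.15, -0.08, -0.13 and 0.21 in the wild types and -0.27, -0.70 and -0.89 in the knockouts. Probe 10024396015 read 0.03, -0.10, 0.07, 0.33 and 0.02 in the wild types and 0.02, 0.01 and 0.23 in the knockouts. The first had all knockouts below all wild types, with a difference of -0.61 ± 0.14, and the second overlapped fully, with 0.02 ± 0.10. Fitted singly over all 39556 probes, their adjusted p was 0.321 and 0.959. This gene yields a long and shorter proteins from different starts, and RefSeq gives 2 starts on chromosome 13. Their windows are shown because the probes differ, although which transcript each probe reads is not given. They lie on the minus strand at chr13:101768168-101768467 and chr13:101692581-101692880 in build GRCm38.p6, with capitals as above.
Pik3r1 first start: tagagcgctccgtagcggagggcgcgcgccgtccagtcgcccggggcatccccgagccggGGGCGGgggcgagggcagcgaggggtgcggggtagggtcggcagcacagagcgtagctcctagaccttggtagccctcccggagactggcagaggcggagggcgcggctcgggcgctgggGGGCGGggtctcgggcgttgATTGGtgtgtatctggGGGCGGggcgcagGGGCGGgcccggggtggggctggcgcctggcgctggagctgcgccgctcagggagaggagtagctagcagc
Pik3r1 second start: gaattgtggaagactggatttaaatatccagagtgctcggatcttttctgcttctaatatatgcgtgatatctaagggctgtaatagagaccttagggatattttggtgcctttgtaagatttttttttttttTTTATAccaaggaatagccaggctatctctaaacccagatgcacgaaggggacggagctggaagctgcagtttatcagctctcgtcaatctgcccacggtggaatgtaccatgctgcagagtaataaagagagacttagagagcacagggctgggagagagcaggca
The 2 starts had unlike windows. The first held 75.7% G and C, 34 CpG pairs, 4 matches to the GC box, which 35.7% of windows hold at least once, and 1 to CCAAT, which 37.4% hold. The second held 43.7% G and C, 6 CpG pairs and 1 match to the TATA motif on the opposite strand.

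Class III was read through both of its core subunits. Pik3c3, the lipid kinase of autophagy and endosomes, had mean ratios over 2 probes of 0.04, 0.03, 0.00, -0.09 and 0.11 in the wild types. The knockouts read -0.03, -0.02 and -0.14, overlapping with wild-type mouse 22. The difference was -0.08 ± 0.05, with a 95% interval from -0.21 to 0.05, an adjusted p of 0.675 in limma, and probe values of -0.06 and -0.10.

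Pik3r4, the membrane-anchored partner that Pik3c3 needs for activity, had mean ratios over 3 probes of 0.02, 0.04, 0.02, 0.00 and 0.00 in the wild types. Knockout mice 27, 31 and 33 read -0.15, -0.11 and -0.21. All knockouts lay below all wild types, whose SD of 0.0157 was the smallest of the set. That SD is of a mean over 3 probes, whose own wild-type SDs were 0.086, 0.082 and 0.063. Pik3cb, read by 1 probe, had 0.035. The difference was -0.17 ± 0.04 (95% interval from -0.27 to -0.08, unadjusted p = 0.0026, adjusted p = 0.324 in limma). With the knockout arrays turned in sign it would be 0.14.

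A single probe of Pik3r4 carried most of that difference. Probe 10018195258 read -0.09, 0.08, 0.01, -0.13 and -0.01 in the wild types and -0.44, -0.38 and -0.51 in knockout mice 27, 31 and 33, a difference of -0.42 ± 0.06 (adjusted p = 0.108). Probe 10024397771 gave -0.11 ± 0.05 (adjusted p = 0.568) and probe 10018186437 gave 0.01 ± 0.06 (adjusted p = 0.951), both with overlapping genotypes. The single-probe values were singled out after they were seen. RefSeq gives 1 start for Pik3r4, on the plus strand of chromosome 9 at chr9:105642745-105643044 in build GRCm38.p6, shown here because it is the other gene of the set with no overlap between genotypes.
Pik3r4 start: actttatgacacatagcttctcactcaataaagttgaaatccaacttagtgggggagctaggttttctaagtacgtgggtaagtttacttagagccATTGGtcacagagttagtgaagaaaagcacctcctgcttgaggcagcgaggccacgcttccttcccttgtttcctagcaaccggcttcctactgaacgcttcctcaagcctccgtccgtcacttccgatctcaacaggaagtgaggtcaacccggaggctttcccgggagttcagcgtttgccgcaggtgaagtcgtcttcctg
Its window held 50.7% G and C, 13 CpG pairs and 1 match to CCAAT on the opposite strand, and shared no motif of the 7 with either window of Pik3c2g.

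**Figure D2:**
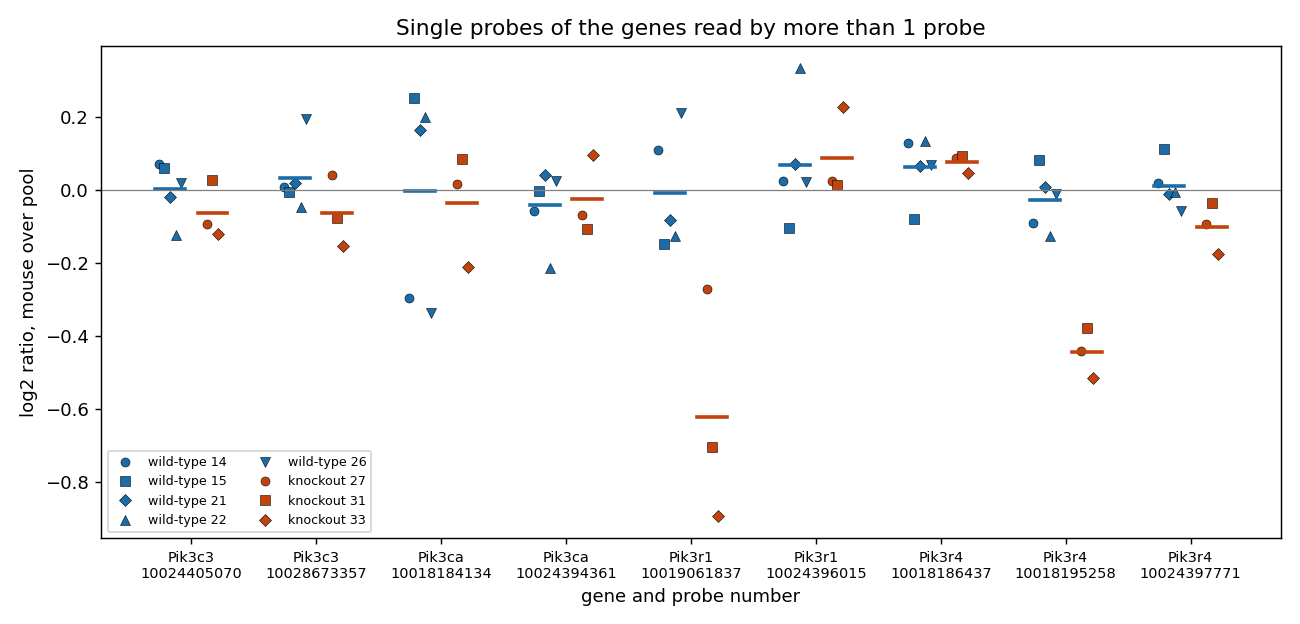
Log2 ratio of each mouse to the pool (vertical axis) for the single probes of the 4 genes read by more than 1 probe (horizontal axis, gene and probe number), with 1 point per mouse and short lines at the group means. Probe 10019061837 of Pik3r1 and probe 10018195258 of Pik3r4 have all knockouts below all wild types, and the other probes of the same genes overlap.

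None of the 9 genes besides Pik3c2g passed adjusted p 0.05 in limma, with a lowest value of 0.324, where 10 of 36169 features (0.0276%) passed. That background count lay between 6 and 65 when 1 mouse was left out, and 65 was reached without wild-type mouse 22. At an unadjusted p of 0.05, 2 of the 9 passed, Pik3r1 and Pik3r4, against 9.28% of all features. With each probe fitted singly, 16 of 39556 probes (0.0404%) passed, and none of the 14 probes of those 9 genes did, with a lowest adjusted p of 0.108. Groups without overlap were seen in 2 of the 10 genes, Pik3c2g and Pik3r4, and in 7.21% of all features. They were seen in 3 of the 15 single probes, against 7.24% of all probes. Pik3c2g is among these by its choice, so nothing is read from either count.

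Besides Pik3c2g the differences ran from -0.30 (Pik3r1) to 0.10 (Pik3c2b). Of these 9 genes, 8 had a negative and 1 a positive difference, with a median of -0.02. Over all 10 the median was -0.05, beside 0.00 over all named genes, of which 50.1% were below 0. The median over all 10 was -0.10 without wild-type mouse 22 and -0.09 without knockout mouse 33. The median ratio over the 10 genes was 0.05, 0.02, 0.02, -0.04 and 0.04 in the wild types and -0.07, -0.05 and -0.09 in the knockouts. With the knockout arrays turned in sign, 7 genes had a positive and 3 a negative difference, the median was 0.05, and 3 genes had groups without overlap, against 10.8% of all features. The differences besides Pik3c2g then ran from -0.05 (Pik3c2b) to 0.24 (Pik3r1). Of these 9 genes, Pik3r1 and Pik3r4 had unadjusted 95% intervals without 0. The order by size was not stable, since Pik3c2a stood at -0.38 with array weights and at -0.45 without mice 22 and 33, where Pik3r1 stood at -0.31 and -0.25.

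**Figure D3:**
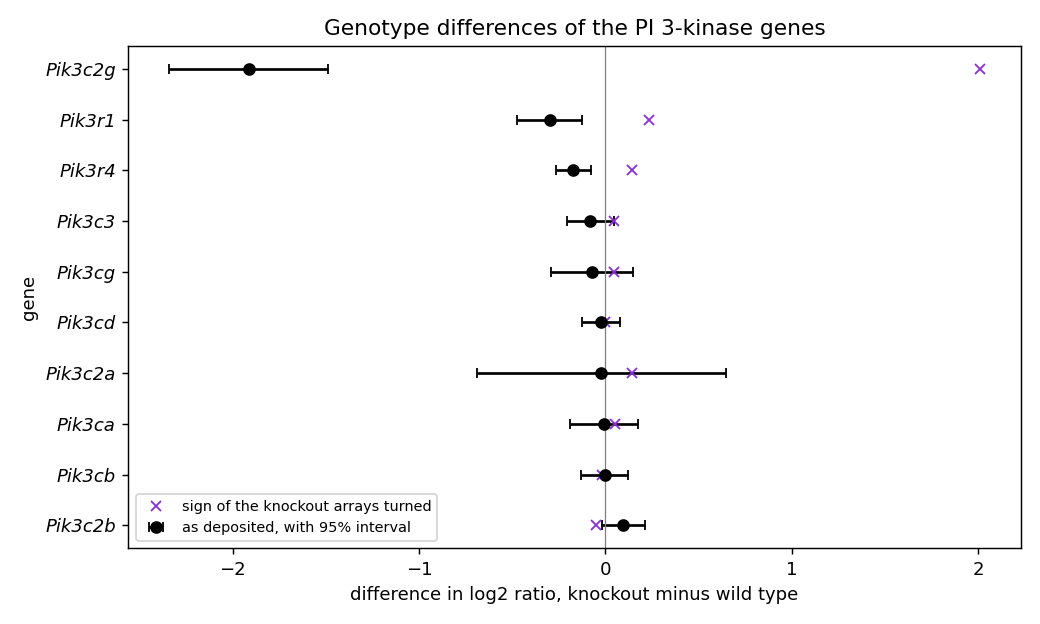
Difference in log2 ratio, knockout minus wild type (horizontal axis), for the 10 genes (vertical axis, ordered by difference), as black points with 95% intervals from the limma fit and as crosses with the knockout arrays turned in sign. Pik3c2g, chosen for this difference, has its point at -1.91 and its cross at 2.01, and its interval does not allow for that choice.

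The named genes whose pattern over the 8 mice was most like that of Pik3c2g were sought by Pearson's r among 19895 others. Mice of each genotype sit together in Pik3c2g, so r mainly reads the gap between genotypes; it is a measure of likeness only. The highest values were 0.97 for Car7, a carbonic anhydrase, 0.97 for Hdhd5, 0.97 for Gpc1, a heparan sulphate proteoglycan, 0.96 for Rasa4, a RAS GTPase-activating protein, and 0.96 for Pik3r4. Their differences ran from -1.32 (Gpc1) to -0.15 (Hdhd5), and with the knockout arrays turned in sign from 0.14 (Hdhd5) to 1.23 (Gpc1). The lowest values were -0.99 for Cldn5, a tight junction protein of endothelium, -0.97 for Atp7b, the copper pump of hepatocytes, -0.97 for Grb7, an adaptor of receptor kinases, -0.97 for Plxna4 and -0.97 for Tmco6. With each genotype's mean removed, r was 0.75 for Hdhd5, 0.60 for Rasa4, 0.57 for Pik3r4, 0.55 for Car7 and 0.53 for Gpc1. It was -0.88 for Atp7b, -0.87 for Cldn5, -0.72 for Grb7, -0.70 for Plxna4 and -0.50 for Tmco6. These genes were picked by r over the same 8 mice, which favours large values here too, so nothing is read from their size. In all, 74 named genes had an r above 0.9 and 95 below -0.9. Within the set, r with Pik3c2g was 0.79 for Pik3r1 and -0.67 for Pik3c2b, but -0.14 and -0.12 with each genotype's mean removed. For Pik3cb r was 0.22, and with the means removed 0.69, the largest of the set.

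Genes next to Pik3c2g on chromosome 6 were examined in the gene order of RefSeq, 10 measured named genes on each side. Their differences had a median of 0.00 and ran from -0.46 to 2.31, and 4 of the 20 had groups without overlap, where 7.21% of all features did. Every measured gene between Dera, before Pik3c2g, and Slco1a1, after it, overlapped between genotypes, with differences from -0.25 (Aebp2) to 0.44 (Slco1a4). Of the 4 without overlap, 3 lie farther before it: Ptpro, a receptor tyrosine phosphatase, at -0.35 ± 0.08, Strap at -0.21 ± 0.05 and Dera, a deoxyribose-phosphate aldolase, at -0.46 ± 0.09. The other was Slco1a1, an organic anion transporter of liver, at 2.31 ± 0.91. Its ratios were -1.19, -1.11, 0.80, 1.18 and -3.08 in the wild types and 1.27, 1.24 and 2.38 in the knockouts, so the wild types alone spread over more than the genotype difference. None of these 20 genes passed adjusted p 0.05. With the knockout arrays turned in sign, Slco1a1 would be at -0.95, Dera at 0.45 and Ptpro at 0.35. Apart from Slco1a1, these neighbours were named after their values were seen.

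**Figure D4:**
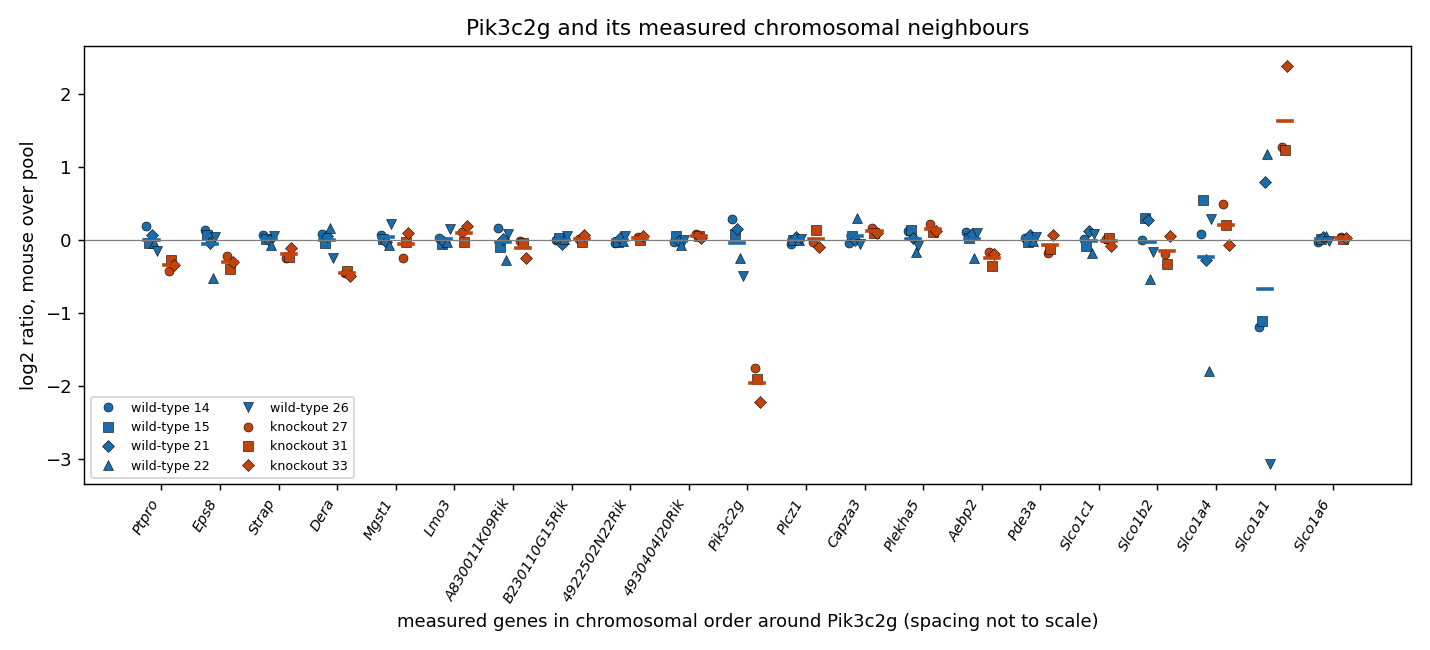
Log2 ratio of each mouse to the pool (vertical axis) for Pik3c2g and the 10 measured named genes on each side of it in chromosomal order (horizontal axis, spacing not to scale), with 1 point per mouse and short lines at group means. The genes between Dera and Slco1a1 other than Pik3c2g overlap between genotypes, and Slco1a1 spreads from -3.08 to 1.18 among the wild types.

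Pik3cb and Pik3r4 lie on chromosome 9, as does Me1, with 67 and 114 measured named genes between them and Me1 in the order of RefSeq. Around Pik3cb the 10 nearest measured genes had differences from -0.22 to 0.08, and 2 of the 10 had groups without overlap, Esyt3 and Mras. Around Pik3r4 they ran from -0.99 to 0.52, and 3 of the 10 had groups without overlap, Nudt16, Nek11 and Ppm1m, where 7.21% of all features did. Among them Nudt16, a nucleotide hydrolase, stood at 0.52 ± 0.09 and Ppm1m, a protein phosphatase, at -0.99 ± 0.25, or -0.52 and 1.16 with the knockout arrays turned in sign. Ppm1m read -0.08, 0.37, -0.33, -0.77 and 0.39 in the wild types and -1.12, -1.02 and -1.08 in the knockouts. Next to the other 7 genes of the set, with 10 neighbours each, 1 neighbour had a difference above 0.5 in size, Sox6os beside Pik3c2a at -0.91 ± 0.22, or 0.93 turned. Groups without overlap were seen in 2 of the 10 neighbours of Pik3c2a and 1 of the 10 of Pik3cd. They were seen in 0 of the 10 beside each of Pik3ca, Pik3cg, Pik3c2b, Pik3c3 and Pik3r1. Esyt3, Mras and Nek11 were named after their values were seen.

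No gene of the 9 lists drawn up around the kinases passed adjusted p 0.05 (lowest 0.38, Mtor), so the values that follow describe the livers without a call. With the knockout arrays turned in sign, the medians of these lists ran from -0.03 to 0.38. Of 6 further subunits and regulators of phosphoinositide 3-kinase, 5 were below 0 and 1 above, with a median of -0.18. Pik3r3, a regulatory subunit of class I, stood at -0.42 ± 0.14, Pik3ap1, an adaptor of immune cells, at -0.33 ± 0.13 and Pik3r2, another class I regulatory subunit, at -0.24 ± 0.09. Pik3r3 read 0.16, 0.10, -0.10, -0.36 and 0.14 in the wild types and -0.18, -0.59 and -0.51 in the knockouts. Wild-type mouse 22 thus lay inside the knockout range. With the sign turned the median of this list was 0.22.

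Enzymes that make or remove the neighbouring lipids lay near 0. Of 11 PI 4-kinases and PIP kinases, 5 were above and 6 below 0, with a median of -0.01, and Pi4ka, which makes the plasma membrane pool of phosphatidylinositol 4-phosphate, stood at -0.24 ± 0.10. Pi4kb, a kinase of the Golgi, stood at 0.10 ± 0.08 and Pip4k2c at -0.08 ± 0.07. Of 20 phosphoinositide phosphatases, 9 were above and 11 below 0, with a median of -0.04. The 5-phosphatase Inpp5d of blood cells stood at -0.23 ± 0.09 and the myotubularin-related Mtmr2 and Mtmr1 at -0.15 ± 0.08 and -0.14 ± 0.07. No gene of these lists had groups without overlap.

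Partners of the class III kinase and readers of its lipid were measured too. Of 9 genes of its complexes and of autophagy, 4 were above and 5 below 0 (median -0.01). Atg14, which directs the kinase to autophagy, stood at 0.23 ± 0.09, Uvrag, which directs it to endosomes, at 0.28 ± 0.19, and the inhibitor Rubcn at -0.12 ± 0.06. Of 14 endosomal readers and RAB5 genes, 3 were above and 11 below 0 (median -0.09). Wdfy1, an endosomal lipid reader, stood at -0.70 ± 0.31, but its knockouts read -0.55, 0.07 and -1.61, so knockout mouse 31 lay within the wild-type range of -0.13 to 0.11. The sorting nexins Snx3 and Snx1 stood at -0.12 ± 0.06 and -0.10 ± 0.05. Of 8 clathrin and AP2 genes, 1 was above and 7 below 0 (median -0.06), with the light chain Cltb at -0.19 ± 0.08, the heavy chain Cltc at -0.16 ± 0.11 and the adaptor subunit Ap2b1 at -0.10 ± 0.09.

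Upstream of class I, 8 of 14 receptor, adaptor and RAS genes were above and 6 below 0 (median 0.04). The receptor Erbb3 stood at 0.32 ± 0.12, the insulin receptor substrate Irs2 at 0.58 ± 0.22 and the adaptor Gab1 at 0.29 ± 0.11. Egfr, named after its values were seen, had the list's highest difference of 1.19 ± 0.54, with wild types from -0.89 to 0.93 overlapping knockouts from 0.17 to 1.95. Downstream, 8 of 18 AKT and mTOR pathway genes were above and 10 below 0 (median -0.06). Mtor, the growth-controlling kinase, read 0.24, 0.05, -0.46, -0.35 and 0.35 in the wild types and -0.67, -0.67 and -1.03 in the knockouts, a difference of -0.75 ± 0.20 (adjusted p = 0.38). Akt1 stood at -0.17 ± 0.06 and Foxo3 at 0.15 ± 0.06. Akt2, the main AKT of insulin action in liver and named after its values were seen, stood at 0.09 ± 0.09. Of these 18 genes 3 had groups without overlap, where 7.21% of all features did: Mtor, Akt1 and Mapkap1, a subunit of an mTOR complex. In the upstream list 1 gene did, the adaptor Grb2. Mapkap1 and Grb2 were named after their values were seen.

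Of 5 measured transcripts under insulin control in liver, insulin is known to lower Pck1, G6pc, Igfbp1 and Ppargc1a and to raise Srebf1. All 5 differences were below 0 (median -0.14). The gluconeogenic enzymes Pck1 and G6pc stood at -0.46 ± 0.16 and -0.56 ± 0.41, the coactivator Ppargc1a at -0.14 ± 0.10, the lipid synthesis regulator Srebf1 at -0.12 ± 0.26 and the binding protein Igfbp1 at -0.07 ± 0.78. Srebf1 and Igfbp1 were named after their values were seen. The median ratio of that list ran from -0.30 to 0.08 in the wild types and from -0.28 to -0.11 in the knockouts, which overlap. With the sign turned all 5 would be above 0.

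**Figure D5:**
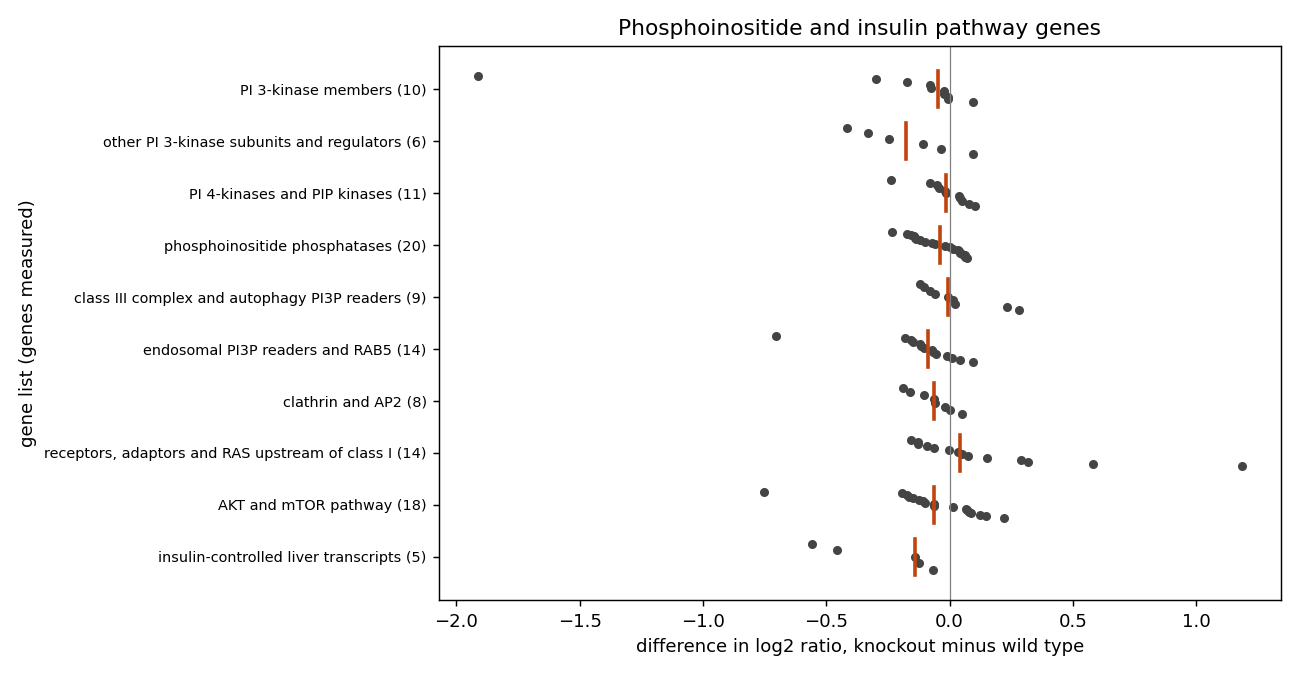
Difference in log2 ratio, knockout minus wild type (horizontal axis), for each measured gene of the phosphoinositide 3-kinase set and of 9 related lists (vertical axis, number of genes measured in brackets), with a red line at each list's median. Medians lie between -0.18 and 0.04, and the lone point at -1.91 is Pik3c2g.

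Markers of other liver cell types were compared with the same fit. Of 6 stellate cell and fibroblast markers 4 were below 0 and 2 above (median -0.41), and the median would be 0.52 with the knockout arrays turned in sign. Col1a1 stood at -1.29 ± 0.52, Col3a1 at -0.99 ± 0.39, Pdgfrb at -0.55 ± 0.24 and Lrat at -0.27 ± 0.30. Reln stood at 0.19 ± 0.15 and Des at 0.08 ± 0.07. The genotypes overlapped in all 6. The median ratio of the 6 markers ran from -0.60 to 0.21 in the wild types and from -0.77 to -0.32 in the knockouts. Of 8 hepatocyte markers 5 were above 0 (median 0.08), of 6 endothelial markers 3 (median 0.02) and of 4 bile duct markers 2 (median 0.00). Endothelial Lyve1 stood at -1.01 ± 0.36 with overlap and Kdr at 0.21 ± 0.06 without, and the other endothelial markers ran from -0.03 (Tek) to 0.09 (Stab2). The white blood cell marker Cd79a (0.13) and the bile duct marker Krt7 (0.09) also had no overlap, where 7.21% of all features had none. With the sign turned the medians of the hepatocyte, white blood cell, endothelial and bile duct markers were -0.04, -0.16, -0.01 and 0.00. The markers named here were picked after their values were seen. No marker passed adjusted p 0.05, and the part of these cell types in the Pik3c2g values was not tested. Ratios to a liver pool carry no level, so the presence of a marker cannot be read from them.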

How the data were processed

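The authors deposited 1 column per mouse of normalized log10 ratios of liver RNA to a wild-type pool; base and direction are inferred here, and a dye swap is named in the series' design text. Per the labels, spin-column RNA was amplified with aminoallyl nucleotides before coupling to Cy3 or Cy5. How background, normalization and swapped arrays were handled is not given in the sources.

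Values were put on the log2 scale. Probes were named through the platform annotation, and 6594 of 23283 named probes had their symbol updated through RefSeq (GRCm38.p6). Probes of 1 symbol were averaged. Over all 36169 features, knockout (n = 3) and wild type (n = 5) were compared in limma 3.58.1 (R 4.3.3; lmFit, eBayes) with Benjamini-Hochberg adjustment and a threshold of 0.05; the code was tested on simulated data. Mice are separate animals, so p-values cover the spread between mice. Precision is limited by the number of arrays, and no batch is named in the labels.

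All set members are described. Of each pathway list the 3 genes of smallest p are named, with the 5 most like and 5 most unlike Pik3c2g, and neighbours beyond 0.5 in size; other genes named are said to be. A likeness over the 5 wild types alone was planned and is not given, as 5 mice are too few for a correlation. Members and lists were chosen with earlier results of these data known. Alternatives were the sign of the knockout arrays, centring, quantile normalization, array weights, robust eBayes, single probes, a variability filter and leaving out mice. Genes of the lists without a named probe were not analysed here. Promoter windows come from RefSeq.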

Additional observations from a re-analysis of the deposited data

Results flagged for a closer look

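In 1 of 19 sets of 5 wild-type values tested (10 genes and 9 single probes), 1 mouse stood apart from the others by Dixon's test. Probe 10028673357 of Pik3c3 read 0.194 in wild-type mouse 26, where the nearest other wild type read 0.0186, a gap of 0.724 of the whole range. Chance alone gives such a flag in about 1 of 20 groups. The second Pik3c3 probe read 0.02 in that mouse.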

How the results depend on the processing

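Pik3c2g kept its negative difference under centring (-1.93), array weights (-1.995) and quantile normalization (-1.58). It also did so without wild-type mouse 22 and knockout mouse 33 together (-1.84) and without any 1 mouse (-2.03 to -1.79). Robust eBayes and the variability filter leave a gene's difference as it is, and Pik3c2g has 1 probe. Those settings and the single-probe fit therefore could not change it. The gene was chosen on this difference, so none of these values tests it. None of the other 9 genes passed adjusted p 0.05 where tested, and the variability filter kept Pik3cg, Pik3c2a and Pik3r1 of them. The adjusted p in limma moved with the setting. For Pik3r1 and Pik3r4 it was 0.353 and 0.324 in the main fit and 0.0787 and 0.0791 with array weights. It was 0.173 and 0.127 without wild-type mouse 22, and 0.98 for both without knockout mouse 33. Turning the sign of the knockout arrays gave 2.01 for Pik3c2g, 0.237 for Pik3r1, 0.142 for Pik3r4, 0.144 for Pik3c2a, 0.0538 for Pik3ca, 0.0477 for Pik3cg, 0.0453 for Pik3c3, -0.0514 for Pik3c2b and 0.0507 for the median of the set.

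Near 0 the direction was unstable. Pik3cb was 0.00176 with quantile normalization, 0.0102 with array weights and 0.061 without mice 22 and 33, Pik3ca was 0.0406 with array weights and 0.00868 without those mice, and Pik3cd was 0.00565 without them. With 1 mouse left out Pik3ca ran from -0.0467 to 0.0285, Pik3cb from -0.0472 to 0.0556, Pik3cd from -0.0393 to 0.00668 and Pik3c2a from -0.252 to 0.155. Pik3c2a moved most, from -0.0207 to -0.377 with array weights and -0.452 without mice 22 and 33.

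The median of the set was -0.0932 with quantile normalization, -0.102 with array weights, -0.186 over the 4 members kept by the variability filter, -0.108 without mice 22 and 33, and from -0.101 to -0.0413 with 1 mouse left out. Genes of the set without overlap numbered 1 of 4 under the filter, against 7.09% of features, and 5 of 10 without mice 22 and 33, against 23.4%. The filter keeps the genes of larger SD over all mice of both genotypes, so a gap between genotypes helps a gene to stay. Pik3c2g is among those kept and was chosen on its gap. Nothing is therefore read from the median or the count under the filter. Fewer mice overlap less often by construction, and other causes were not tested. Features past adjusted p 0.05, 10 in all, numbered 6 with quantile normalization, 207 with array weights, 22 under the filter, 19 without mice 22 and 33, 16 as single probes and 6 to 65 with 1 mouse left out (65 when wild-type 22 was dropped, 18 for wild-type 26, 17 for knockout 27 and 6 for wild-type 14). No paired analysis was made, because the sample labels give no litter for a mouse and pair no knockout with a wild type. Spot brightness was not used, so signal over background is unknown.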
